A study of Mus musculus with 605 samples.

Results

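Osteopontin is encoded by Spp1 (ENSMUSG00000029304.14), and 28 of 145 myeloid cells from mouse skin held its transcript. They were chosen by their own Spp1 value: a cell was Spp1-positive at 1 TPM (a transcript abundance corrected for transcript length and for the total of the cell) or more, and the other 117 cells were Spp1-negative. Of the positive cells, 10 came from 73 wild-type cells (WT P56) and 18 from 72 mutant cells (Mut P56), out of 566 cells kept and 605 deposited in the whole series. All came from dorsal skin at postnatal day 56. The mutant is the Tyr-Nras model of congenital hairy nevi, in which the tyrosinase promoter drives Nras with the activating Q61K change in melanocytes, so the myeloid cells of these mice are not themselves the cells the transgene was designed for. Cells were caught singly on Fluidigm C1 chips, and no source used here says how the myeloid cells were sorted. The cells of each genotype are treated as 1 plate here, although no sample title names a plate and no label names an animal. Genotype therefore cannot be told apart from plate or animal, and no test was made. Every SD or interval is over the cells of these plates.

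Osteopontin is a secreted, phosphorylated glycoprotein. It binds CD44 and several integrins, acts on adhesion and migration, and is known as a product of macrophages, osteoclasts, activated T cells and wounded tissue. Skin holds several kinds of myeloid cell: macrophages, recognised by complement C1q genes, type 1 dendritic cells, which carry the chemokine receptor Xcr1 and the dead-cell receptor Clec9a, type 2 dendritic cells with the lectins Cd209a and Mgl2, and dendritic cells that turn on Ccr7 when they mature and migrate. Langerin, encoded by Cd207, marks epidermal Langerhans cells and is also made by a part of the type 1 dendritic cells of the dermis.

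The sequence just upstream of Spp1 is shown because the cells were divided by whether this gene's transcript was detected. The 250 bases before its RefSeq start lie on the plus strand at chr5:104434861-104435110 (GRCm38.p6), and the gene itself runs from 104435111 to 104441053 on chromosome 5. Capitals mark a Runx-type motif (ACCACA, 128 bases before the start) and a PU.1-type motif (GAGGAAG, 113 bases before it).

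Spp1 upstream: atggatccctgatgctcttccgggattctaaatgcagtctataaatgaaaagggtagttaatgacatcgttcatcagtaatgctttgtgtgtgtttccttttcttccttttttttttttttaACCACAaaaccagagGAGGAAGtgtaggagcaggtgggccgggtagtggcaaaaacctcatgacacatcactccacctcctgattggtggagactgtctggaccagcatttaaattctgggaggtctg

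The motifs were picked after the sequence was seen and searched on both strands. ACCACA occurred in 14% of 32851 windows of the same length upstream of mouse genes. GAGGAAG occurred in 10.6% of them, so a match to either is common. The AP-1 motif TGANTCA (6.75% of windows) had no match here. Neither had the E-box CATGTG, found in 12.3% of windows, or the E-box CACGTG, found in 6.02%.

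Spp1 was either high or at 0 in all myeloid cells but 1. In wild-type myeloid cells it was 3169.7, 555.7, 292.8, 198.7, 177.7, 159 TPM in the 6 highest positive cells and 144.7, 133.9, 108.6 and 102.2 TPM in the others. Among the 18 mutant positive cells it ran from 45.9 to 4218.7 TPM with a median of 215.55 TPM. Just below the threshold stood 1 mutant cell at 0.9 TPM, and the other 116 negative cells were at 0, so no cell lay between 0.9 and 45.9 TPM. A listed 0 can also be a transcript that was not captured. One cell of each plate carried much of the transcript: the highest cell held 62.9% of all Spp1 TPM on the wild-type plate and 45.3% on the mutant plate. The mean over all cells was 69.1 TPM in wild type and 129 TPM in the mutant, and 26 and 71.7 TPM without those cells.

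Spp1-positive cells made up 13.7% of wild-type myeloid cells (exact 95% interval 6.77 to 23.8%) and 25% of mutant ones (15.5 to 36.6%). These intervals overlap and cover counting error in 1 plate each. None of the 256 kept bulge stem cells and none of the 81 wild-type melanocytes reached 1 TPM, and 5 of 84 mutant melanocytes did. Here and below, a count of 0 is given an upper limit of 3 cells of the total. For the 4 groups at 0 this limit is 3.37 to 3.70%, and their exact 95% upper limits are 4.06 to 4.45%.

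**Figure D1:**
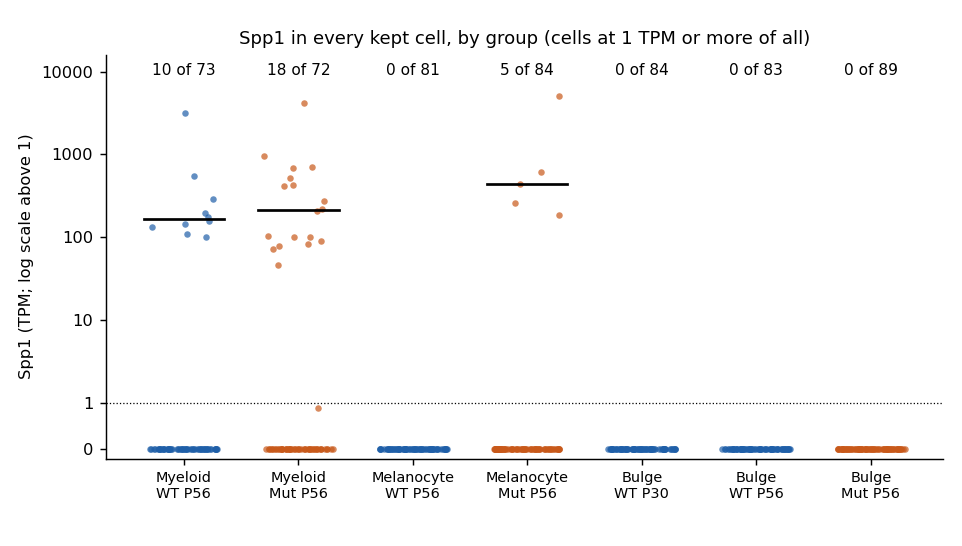
Spp1 in every kept cell (TPM, y axis, log scale above 1) for the 7 groups of cells. Points are cells, blue for wild type and orange for mutant, the dotted line is the 1 TPM threshold, horizontal bars are medians of the positive cells, and the numbers give positive cells of all. Positive myeloid cells lie between 45.9 and 4218.7 TPM, far above the 1 cell at 0.9 TPM.

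The positive cells were of several myeloid kinds, and most were dendritic. Each cell was assigned to the cell type marker list whose genes had the highest mean log2(scaled TPM + 1) in it, and is called led by that list. Lists of abundant genes have an advantage under this rule. By this measure 23 of 28 positive cells (82.1%, 63.1 to 93.9%) were led by a dendritic or Langerhans list, 4 (14.3%, 4.03 to 32.7%) by the macrophage list and 1 by the monocyte list. Among negative cells, 70 of 117 (59.8%) were dendritic or Langerhans-led and 27 (23.1%) macrophage-led. The plates differed here: dendritic or Langerhans-led cells made up 17 of 18 positive and 35 of 54 negative cells in the mutant, but 6 of 10 and 35 of 63 in wild type, where macrophage-led cells were 3 of 10 and 22 of 63. A further 12 negative cells and none of the 28 positive ones were led by the list of T, NK and innate lymphoid cells, which goes against the label of the plates for those 12. The common leukocyte gene Ptprc (CD45) was detected in 27 of 28 positive cells and in 110 of 117 negative cells. The positive cell without it was macrophage-led, with C1qa at 1264.3 TPM.

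Langerhans-led cells were Spp1-positive in 5 of 7 cases (71.4%, 29 to 96.3%) and type 1 dendritic-led cells in 5 of 9 (55.6%, 21.2 to 86.3%). Together, a grouping made after their markers were seen, they were positive in 10 of 16 cases (62.5%, 35.4 to 84.8%), at 3 of 4 in wild type and 7 of 12 in the mutant. Mature dendritic-led cells were positive in 7 of 23 cases (30.4%, 13.2 to 52.9%). Type 2 dendritic-led cells, the most numerous kind, were positive in 6 of 54 (11.1%, 4.19 to 22.6%), and macrophage-led cells in 4 of 31 (12.9%, 3.63 to 29.8%). No T, NK or innate lymphoid-led cell was positive, and 0 of 12 leaves room for a share of up to 25%.

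The Langerhans-led positive cells did not look like Langerhans cells alone. All 5 carried Cd207, at 360.7 to 4059.2 TPM, and 4 carried the epithelial adhesion gene Epcam. Yet all 5 also had Clec9a (12.3 to 238.1 TPM), the adhesion gene Cadm1 (57.2 to 285.5 TPM) and Irf8, the transcription factor of type 1 dendritic cells (354.6 to 1937.6 TPM), and 4 had Xcr1. Since the 5 type 1 dendritic-led positive cells carried these genes too, the 10 cells are described together below. In these 10 cells Clec9a, Cadm1 and Irf8 were detected in 10, Xcr1 in 9 and Cd207 in 8, whereas Ccr7, Cd209a, C1qa and the chemokine gene Cxcl2 were detected in 0. The 6 negative cells of the same lists had Xcr1 in 5, Irf8 in 5, Cd207 and Cadm1 in 4 and Clec9a in 3. Epcam was detected in 5 of the 10 positive and 0 of the 6 negative cells.

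The other positive cells carried a different set of genes. The 7 mature dendritic-led positive cells had Ccr7 in 6 (up to 8633.5 TPM), the chemokine gene Ccl22 in 6 (up to 7504.5 TPM), and Mgl2 and the cytokine gene Il1b in 7. All 6 type 2 dendritic-led positive cells had Cd209a, at 1060.9 to 5399.6 TPM, Mgl2, Il1b and the endotoxin co-receptor gene Cd14, and 3 of them had Ccr7. The 4 macrophage-led positive cells each had Cxcl2, a neutrophil-attracting chemokine, at 2058.2 to 13988.2 TPM, and 3 had C1qa and C1qb. The wild-type cell with the highest Spp1 (3169.7 TPM) was monocyte-led: it had Ly6c2, a marker of inflammatory monocytes, at 674.2 TPM, Cd14 at 8187.8 TPM and Cxcl2 at 6131.6 TPM, and C1qa and Ccr7 at 0. The mutant cell with the highest Spp1 (4218.7 TPM) was type 1 dendritic-led, with Clec9a at 273.5 TPM and Cd207 at 1035.1 TPM.

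Spp1 levels overlapped between the kinds. The median was 356.05 TPM (45.9 to 4218.7) in the 10 type 1 dendritic and Langerhans-led positive cells, 194.45 TPM (78.3 to 424.1) in type 2 dendritic-led cells, 151.85 TPM (133.9 to 524.3) in macrophage-led cells and 102.2 TPM (84.3 to 679.8) in mature dendritic-led cells.

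**Figure D2:**
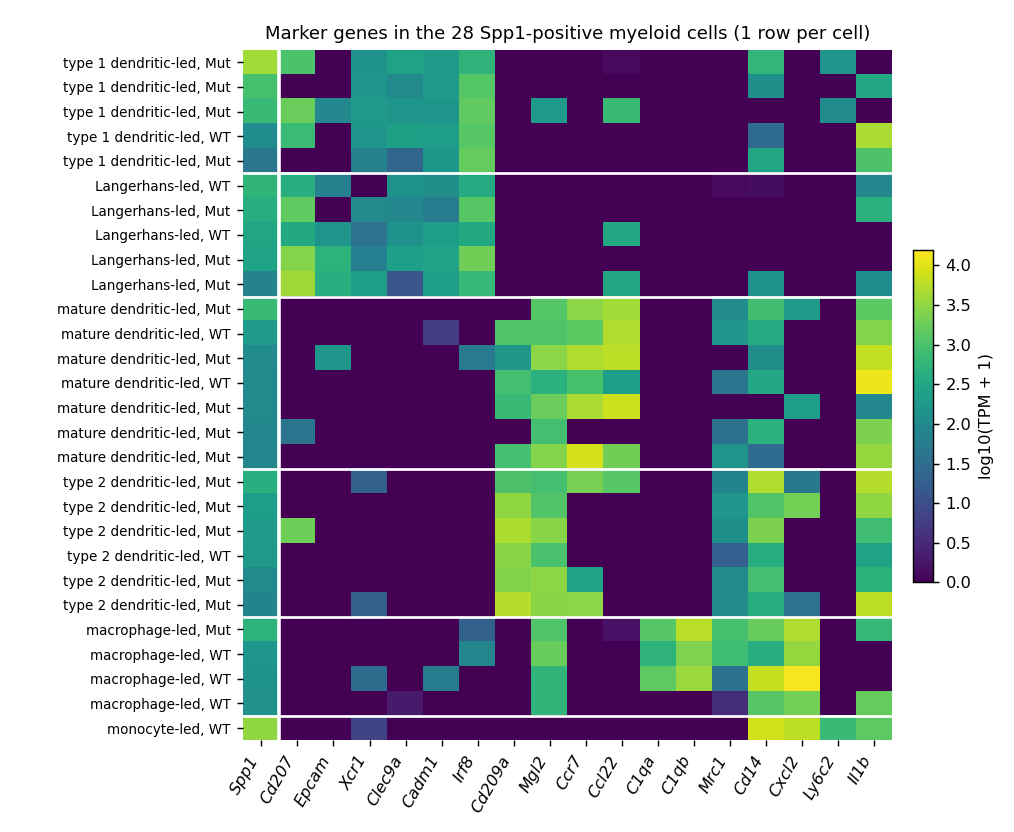
Marker genes (columns) in each of the 28 Spp1-positive myeloid cells (rows, grouped by leading marker list and ordered by Spp1 within it), coloured by log10(TPM + 1), with Spp1 in the first column. The 10 rows at the top share Clec9a, Cadm1 and Irf8, the middle 13 rows share Mgl2 and Il1b, and the 3 rows with C1qa are macrophage-led.

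Seen gene by gene, 4 of the 5 measured markers of type 1 dendritic cells, Clec9a, Cadm1, Xcr1 and Irf8, were detected in a larger share of positive than of negative cells on both plates. Clec9a was detected in 4 of 10 positive against 4 of 63 negative wild-type cells and in 7 of 18 against 2 of 54 mutant cells. Cadm1 was detected in 5 of 10 against 7 of 63 and in 7 of 18 against 5 of 54, and Cd207 in 3 of 10 against 5 of 63 and in 7 of 18 against 4 of 54. The intervals of Clec9a overlapped on the wild-type plate (12.2 to 73.8% against 1.76 to 15.5%) and not on the mutant plate (17.3 to 64.3% against 0.452 to 12.7%). The other marker of that list, the integrin gene Itgae, was detected in 0 of 10 against 3 of 63 wild-type cells and in 6 of 18 against 10 of 54 mutant cells.

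The macrophage and type 2 dendritic lists were mixed. Of 14 measured macrophage genes, 9 differed below 0 on both plates and 2, Cd14 (0.93 and 0.61) and Cd68 (0.13 and 0.66), above 0 on both. Over all 8374 genes detected in at least 10% of positive or negative cells, 24.5% were below 0 on both plates and 29.7% above. Cd209a was detected in 3 of 10 positive against 44 of 63 negative wild-type cells, and in 8 of 18 against 29 of 54 mutant cells. Folr2, a folate receptor of tissue-resident macrophages, was detected in 0 of 28 positive cells (a share of at most 10.7% by this count) and in 20 of 117 negative ones. C1qa was detected in 2 of 10 against 21 of 63 wild-type cells and in 1 of 18 against 8 of 54 mutant cells. On the other side, Cd68, a lysosomal gene of phagocytes, was detected in 28 of 28 positive and 101 of 117 negative cells, and the macrophage marker Adgre1 in 22 of 28 and 84 of 117. In the type 2 dendritic list, Itgax was detected in 20 of 28 positive and 51 of 117 negative cells and the cytokine receptor gene Flt3 in 18 of 28 and 38 of 117. Mgl2 was detected in 6 of 10 against 55 of 63 wild-type cells and in 12 of 18 against 35 of 54 mutant cells. In all these shares the negative cells include the 12 lymphoid-led ones. Positive cells also had more genes detected, with medians of 3195 against 2934 in wild type and 3238.5 against 2776 in the mutant.

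**Figure D3:**
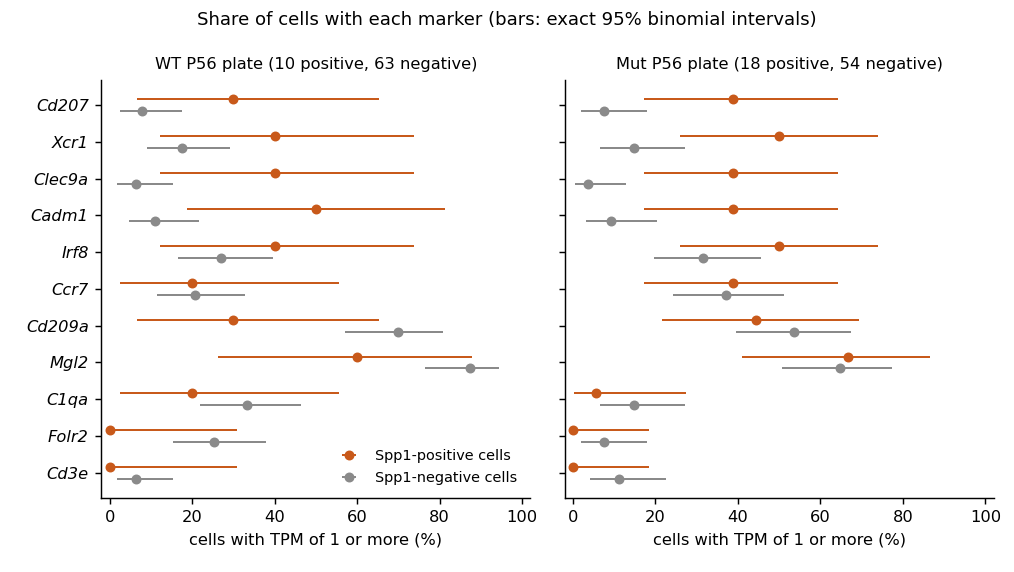
Share of cells with each marker at 1 TPM or more (x axis, %) in Spp1-positive (orange) and Spp1-negative (grey) cells of the wild-type plate (left) and the mutant plate (right), with exact 95% binomial intervals as bars. Clec9a, Cadm1 and Cd207 lie to the right in positive cells on both plates and C1qa and Cd209a to the left.

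Combinations of markers were chosen after their values were seen. Their genes belong to the lists that assigned the kinds and the cells are the same, so they describe the cells again and give no separate support. Cells with Cd207 together with Xcr1 or Clec9a were Spp1-positive in 8 of 15 cases (53.3%, 26.6 to 78.7%), those with Xcr1 or Clec9a without Cd207 in 7 of 21 (33.3%, 14.6 to 57%), and those with Ccr7 and none of the 3 in 7 of 35 (20%, 8.44 to 36.9%). A further 4 cells had Cd207 without Xcr1 or Clec9a, and 2 were positive. Of the 70 cells with none of these 4 genes, 4 were positive (5.71%, 1.58 to 14%). At least 2 of Xcr1, Clec9a and Cadm1 were detected in 16 cells, of which 11 were positive (68.8%, 41.3 to 89%), with 4 of 6 in wild type and 7 of 10 in the mutant. Cells with C1qa were positive in 3 of 32 cases (9.38%, 1.98 to 25%). Cells with Ccr7 were positive in 9 of 42 (21.4%, 10.3 to 36.8%), at 2 of 15 in wild type and 7 of 27 in the mutant.

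Grouping the cells without Spp1 among the genes gave 4 clusters. Cluster 4, led by Ccl8, Pf4, Apoe and the 3 C1q genes and so macrophage-like by its markers, held 17 cells (15 wild-type and 2 mutant) and no Spp1-positive cell, so its share could be up to 17.6%. Cluster 3, led by Cxcl2, Ifitm3 and Ccl4, held 23 cells, 12 of them macrophage-led, and 6 were positive (26.1%, 10.2 to 48.4%). Cluster 2, led by Il1b and MHC class II genes, had 10 of 50 positive, at 2 of 26 in wild type and 8 of 24 in the mutant. Cluster 1, led by the heat-shock genes Hspa1a and Dnajb1, had 12 of 55 positive. It mixed 19 type 2 dendritic-led cells, its most frequent kind, with the 12 lymphoid-led and 15 type 1 dendritic and Langerhans-led cells, among others. It is therefore left without a name.

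Genes that differed between positive and negative cells were sought on each plate separately. Each cell's TPM was scaled to a total of 10000, and the difference is of mean log2(scaled TPM + 1), positive minus negative. Of 5040 genes detected in at least 25% of positive or negative cells, Spp1 apart, 47 were higher by 0.5 or more on both plates (0.933% of genes tested) and 8 were lower (0.159%). The median over these 5040 genes was 0.03. Of the 8 lower genes, 5 were mitochondrial transcripts.

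Cst3 and Cxcl16 had the largest mean differences of the 47. Cst3 encodes cystatin C, an inhibitor of lysosomal proteases that dendritic cells make in quantity, and ran from 2015.1 through a median of 5407 to 47415.5 TPM in wild-type positive cells, against 0, 3721.5 and 50882.7 TPM in negative ones. In the mutant it was 2093.7, 7083 and 44979.8 TPM against 0, 3687.9 and 35516.9 TPM. The ranges overlapped, with a mean difference of 1.41 (1.05 in wild type, 1.78 in the mutant). The level was highest in the 10 type 1 dendritic and Langerhans-led positive cells, at 19883.1 to 47415.5 TPM, and their 6 negative counterparts reached 49345.3 TPM.

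Cxcl16, a membrane-bound chemokine and scavenger receptor, was detected in all 28 positive cells. Its median was 696.7 TPM in wild-type positive cells (14.2 to 1715.5) against 213.9 TPM in negative ones (0 to 1706.7), and 823 TPM (106.5 to 1895.2) against 291.75 TPM (0 to 2751.6) in the mutant. On the log2 scale the means were 3.10 ± 1.22 against 1.67 ± 1.28 in wild type and 3.17 ± 0.89 against 1.88 ± 1.57 in the mutant (SD over cells). It was present in every kind of positive cell, with a lowest value of 385.6 TPM in the type 1 dendritic and Langerhans-led cells, 457.9 TPM in mature dendritic-led cells, 106.5 TPM in type 2 dendritic-led cells and 14.2 TPM in macrophage-led cells.

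Galectin-3, encoded by Lgals3, and the tetraspanin gene Cd9, both known from lipid-laden macrophages, were also higher. Lgals3 differed by a mean of 1.17, with medians of 3985.5 against 2590.7 TPM in wild type and 4861.3 against 2090.2 TPM in the mutant. Cd9 was detected in 27 of 28 positive cells and differed by 0.87 in wild type and 1.16 in the mutant. Plbd1, a lysosomal phospholipase-like gene, differed by 1.11 and 1.57 and was detected in all 28 positive cells. The histone variant gene H2afz differed by 0.94 and 1.55.

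Anxa2, Tagln2, Lmna, Cytip, Ckb and Rab7b were higher as well. Anxa2 (annexin A2) had medians of 2947.05 against 1055.6 TPM in wild type and 2539.35 against 1485.55 TPM in the mutant, a mean difference of 1.17. Tagln2, an actin-binding gene, differed by a mean of 1.02, Lmna (lamin A/C) by 0.93 and 0.90, and Cytip, which regulates adhesion of lymphocytes and dendritic cells, by 1.23 and 0.69. Ckb (creatine kinase B) differed by 1.18 and 0.75, and Rab7b, a late endosome GTPase, by a mean of 0.96.

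Genes carried by a minority of the cells passed as well. Cd207 (0.65 and 1.27) and Ccl22 (0.61 and 1.34), which attracts regulatory T cells, had medians at or near 0 in positive and negative cells alike, so their differences rest on the few cells that carried them. Il1rn, the interleukin-1 receptor antagonist, was detected in 7 of 10 positive and 24 of 63 negative wild-type cells and in 9 of 18 and 18 of 54 mutant cells, and differed by 1.13 and 0.75.

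The other 3 lower genes are all known from macrophages. Sepp1, the plasma selenium carrier that resident macrophages make, had a median of 0.15 TPM in wild-type positive cells (0 to 812.8) and 344.8 TPM in negative ones (0 to 12836.7), and 0 against 144.7 TPM in the mutant, differences of -1.93 and -0.66. Apoe differed by -1.33 and -0.61, although its median was 1.75 against 1.2 TPM in wild type and 0 in both mutant groups. Its highest value was 5543.2 TPM in wild-type positive cells and 28688 TPM in negative ones. Fcgr3, an activating receptor for antibody complexes, differed by -0.59 and -0.66.

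**Figure D4:**
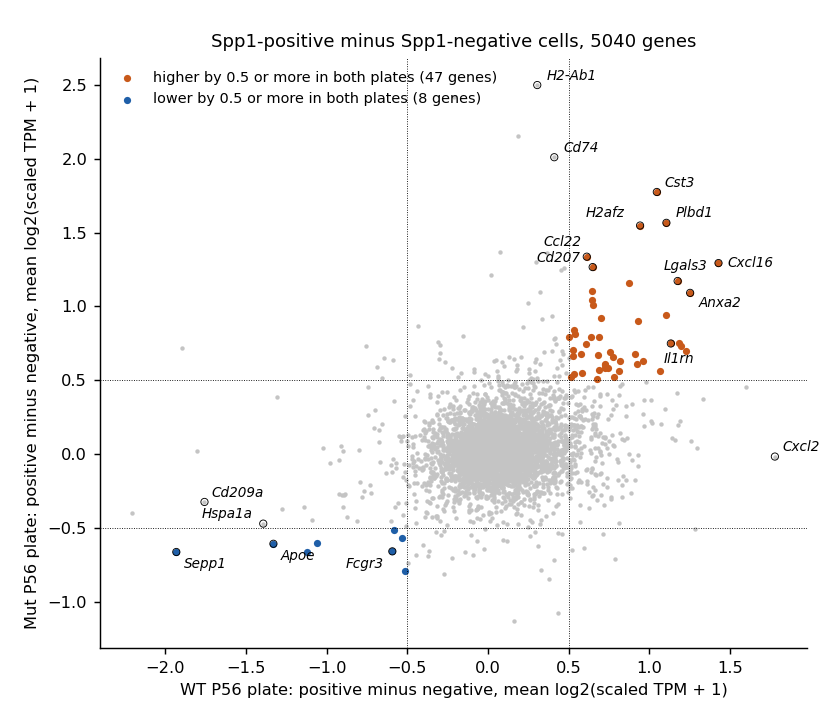
Difference between Spp1-positive and Spp1-negative cells on the wild-type plate (x axis) and the mutant plate (y axis) for 5040 genes, in mean log2(scaled TPM + 1). Orange genes were higher and blue genes lower by 0.5 or more on both plates (dotted lines). Cst3, Cxcl16, Plbd1 and Anxa2 stand at the upper right, Sepp1 and Apoe at the lower left, while H2-Ab1 and Cd74 differed in the mutant and Cxcl2 in wild type.

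When each positive cell was left out in turn, 22 of the 47 higher and 4 of the 8 lower genes stayed past 0.5 on both plates in all 28 omissions. Cst3, Cxcl16, Plbd1, H2afz, Lgals3, Anxa2, Tagln2, Cd9, Ckb, Rab7b, Cytip, Il1rn and Lmna were among those, with Sepp1, Apoe and Fcgr3 among the lower ones, while Cd207 stayed in 25 and Ccl22 in 26 omissions.

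The genes whose values ran most like Spp1 over cells, ranked by the lower of the plates' Spearman correlations, were Clec9a (rho 0.38 over 73 wild-type and 0.48 over 72 mutant cells), Cadm1 (0.37 and 0.38), Emp2 (0.35 and 0.45), Anxa2 (0.34 and 0.39), Gng12 (0.37 and 0.34) and Cxcl16 (0.38 and 0.33). Only genes detected in at least 25% of the positive cells were ranked. The ranking also uses the Spp1 values that divided the cells, so it gives no separate support. The correlations are weak and share the many cells in which Spp1 is 0. Emp2, a small membrane protein, was detected in 8 of 28 positive and 2 of 117 negative cells, and Gng12, a G-protein subunit, in 9 of 10 against 28 of 63 wild-type cells.

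Because positive cells held more dendritic-led cells, the comparison was repeated in the 93 dendritic and Langerhans-led cells alone (6 positive and 35 negative in wild type, 17 and 35 in the mutant). Here 44 genes were higher and 15 lower by 0.5 on both plates, of which 20 and 4 had been past 0.5 in all cells. Cst3 (mean 1.2), Cxcl16 (1.03), Plbd1 (0.86), Anxa2 (1.17), Tagln2 (1.36), Cd207 (1.13), Ccl22 (1.1), Irf8 (1.11), Ckb (0.99) and Rab7b (0.86) stayed higher. Lgals3 (0.36), Cd9 (0.58), Il1rn (0.25) and H2afz (0.77) no longer reached 0.5 on each plate, and neither did Spi1 (0.38). Sepp1 (-0.93) and Fcgr3 (-0.56) stayed lower, and Apoe was at -0.13. Cd209a, at -1.96 in wild type and -1.08 in the mutant, passed in this set. The kinds were still unevenly mixed: type 1 dendritic and Langerhans-led cells were 10 of the 23 positive and 6 of the 70 negative cells. Within kinds, Cst3 medians were 32982.2 against 28894.7 TPM in those cells. They were 5011.4 against 4123.8 TPM in mature and 4073 against 3893.25 TPM in type 2 dendritic-led cells.

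Within macrophage-led cells there were too few positive cells for a difference, 3 against 22 in wild type and 1 against 5 in the mutant, so their values are given side by side. Cxcl2 was detected in 4 of 4 positive and 14 of 27 negative cells. Cd9 was detected in 3 of 4 against 6 of 27, Gpnmb in 2 of 4 against 1 of 27 and Trem2, a lipid receptor, in 2 of 4 against 5 of 27. The median of Apoe was 688.8 TPM in the 3 wild-type positive cells and 6800 TPM in the 22 negative ones, and that of Sepp1 556.1 against 4416.9 TPM. The 1 mutant positive cell had Apoe at 7258.2 TPM and Sepp1 at 3760.4 TPM, beside medians of 8425.5 and 3418.9 TPM in the 5 mutant negative cells.

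Gene lists were described by their members detected in at least 10% of positive or negative cells, beside 8374 such genes in all, of which 0.561% were higher and 0.0955% lower by 0.5 on both plates and whose median difference was 0.01. Among these 8374 genes, 29.7% were above 0 on both plates and 24.5% below 0 on both. Of the osteopontin receptors, none of the 6 measured passed in either direction and their median was 0.10. Cd44, the hyaluronan and osteopontin receptor, was detected in all 28 positive cells and differed by 0.81 in wild type (medians 645.95 against 257.6 TPM) and 0.40 in the mutant (332.8 against 266.95 TPM). The shared integrin subunit Itgb1 differed by 0.09 and 0.24. The partner subunits Itgav (0.10 and -0.32), Itga4 (mean -0.04) and Itga5 (0.56 and -0.18) gave no difference past 0.5 on both plates, Itga8 was at 0.07 and -0.01, and Itgb3, Itgb5 and Itga9 were each detected in fewer than 10% of cells of either group.

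None of the 4 measured enzymes that cut or cross-link osteopontin passed. Ctsd (cathepsin D) differed by 0.38 in wild type and -0.85 in the mutant, and Tgm2, a transglutaminase, by 0.44 and -0.05. Mmp12 was at 0.17 and 0.12 and Plau at 0.25 and 0.04. The 4 other genes of the phosphoprotein family next to Spp1 in the genome, Ibsp, Dmp1, Dspp and Mepe, were detected in fewer than 10% of cells. Of 9 measured transcription factors linked to Spp1, Spi1, which encodes PU.1, passed: it was detected in all 28 positive cells and differed by 0.82 and 0.63. Jun (-0.36 and -0.21) and Ets1 (-0.11 and -0.27) did not, and Fos differed in sign (-0.26 and 0.62). Spi1 was also detected in 101 of 117 negative cells, and its mean difference ran from 0.17 to 0.82 over the alternatives tried on this scale.

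Genes of lipid-associated macrophages, a kind in which Spp1 is often high, split. Of 11 measured, Lgals3 and Cd9 were higher and Apoe lower, with a list median of 0.01. Trem2 was detected in 2 of 28 positive and 7 of 117 negative cells, and Gpnmb in 6 of 28 and 8 of 117. Among osteoclast genes, Dcstamp and Ocstamp, whose products act in cell fusion, were detected in 11 and 9 of 28 positive cells against 8 and 10 of 117 negative ones. Acp5, the third measured gene of that list, was detected in 2 of 28 and 16 of 117 cells, with Ctsk, Oscar, Calcr and Atp6v0d2 in none of the positive cells.

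Among 17 chemokine genes measured, Cxcl16 and Ccl22 were higher and none lower. Cxcl2 and Cxcl1, which recruit neutrophils, differed by 1.78 and 1.47 in wild type and by -0.02 and -0.20 in the mutant. Ccl8 differed by -2.10 and -0.30. Of 11 pro-inflammatory genes measured, Il1b passed (0.68 and 0.67), and in dendritic and Langerhans-led cells alone it differed by -0.18 and 0.10. Tnf differed by 0.81 and -0.18.

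The MHC class II list had the largest median, 0.98, with 1.63 on the mutant plate and 0.10 on the wild-type plate. H2-Ab1 differed by 0.31 in wild type and 2.50 in the mutant, and Cd74, the invariant chain, by 0.41 and 2.01. The mutant negative cells include 8 lymphoid-led cells and the wild-type ones 4, and without those cells the list median was 0.39.

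Of 16 actin and migration genes, Anxa2, Anxa1, Actg1 and Vim were higher by 0.5 on both plates. In this list 11 were above 0 on both (29.7% of all 8374 genes were), with a median of 0.22. Of 16 immediate early and stress genes, none passed and 10 were below 0 on both plates (24.5% of all 8374 genes were), with a median of -0.23. Hspa1a, an inducible heat-shock gene, differed by -1.39 and -0.47 and Egr1 by -0.38 and -0.40. With negative cells matched to positive ones on the number of genes detected, this median was -0.01.

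In the other lists few genes passed. Adam8, a sheddase of leukocytes, was higher (0.77 and 0.66) among 12 matrix and protease genes, and Thbs1 (thrombospondin 1) differed by 0.88 and 0.07. Cenpa, a centromere histone, was higher (0.53 and 0.67) among 17 cell cycle genes, whereas Mki67 differed by 0.04 and 0.07. None of 15 lysosome genes, 14 glycolysis genes, 8 hypoxia genes or 9 interferon response genes passed in either direction. Of 6 measured hair growth signals none passed, and Igf1, which macrophages secrete, differed by -0.65 in wild type and 0.02 in the mutant. Mrc1, the mannose receptor of alternatively activated macrophages, differed by -1.02 and 0.04.

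**Figure D5:**
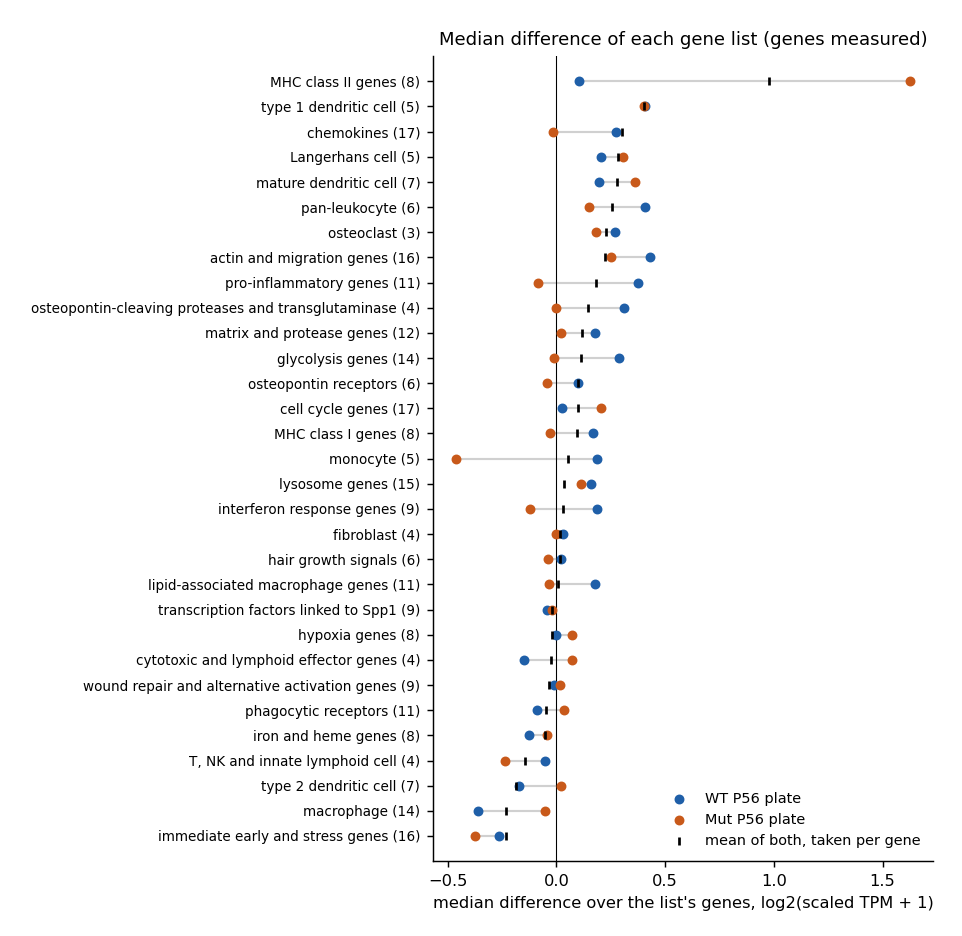
Median difference between Spp1-positive and Spp1-negative cells (x axis, log2 scale) over the measured genes of each list with at least 3 measured, in wild type (blue) and mutant (orange). Type 1 dendritic genes lie at 0.41 and 0.40, macrophage genes at -0.36 and -0.05, and MHC class II genes at 0.10 and 1.63.

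Other measures moved with the split. The median number of genes detected was 3195 in positive and 2934 in negative wild-type cells, and 3238.5 and 2776 in mutant ones. Mitochondrial transcripts took a median of 2.23% and 4.10% of TPM in wild type and 3.29% and 4.61% in the mutant. Their part in the differences was not tested beyond the matched comparison. Of the 6 melanocyte markers, Dct, Tyr, Mlana and Slc45a2 were at 0 in all 28 positive cells, and the summed melanocyte list reached at most 0.3 TPM. The keratinocyte list reached at most 88.3 TPM in wild-type and 144.5 TPM in mutant positive cells, and 264.3 and 568.7 TPM in negative ones. The T, NK and innate lymphoid list summed to at most 634.2 TPM in wild-type and 1404 TPM in mutant positive cells, with Cd3e, Cd3g, Nkg7, Klrb1c and Ncr1 at 0 in all 28. All 5 B cell markers were at 0.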

How the data were processed

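The data are single-cell transcriptomes made on Fluidigm C1 chips. The study's methods name a Clontech SMARTer kit for the cDNA of single cells, whereas the labels name Smart-seq2. The deposited values are TPM, which the authors obtained by aligning reads with STAR (2.4.2 in the submitters' processing notes) to GRCm38 (mm10) and quantifying genes with RSEM. TPM keeps no read depth, so depth is unknown and the number of genes detected stands in for it. In all, 1 wild-type column matched no label and was not used, and the 77 mutant columns carry no well.

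Cells were kept with TPM summing to 750000 or more, no more than 20% of it mitochondrial, and 1000 or more genes above 0. For bulge cells the limit on genes was 2000 to 7000 instead. Cells were compared within each of 2 plates and the 2 differences averaged with equal weight. No test was made, since each group is 1 sample. Intervals are Clopper-Pearson 95% intervals, and a share of 0 allows up to 3 cells of the total. Both cover counting error only. No doublet caller was run. Genes named were the 15 highest and 15 lowest past 0.5 on both plates, the 6 most like Spp1, every listed osteopontin receptor and up to 4 per list, without mitochondrial, ribosomal, predicted and sex-linked genes and pseudogenes. Genes of the marker combinations and of single cells were chosen after their values were seen. The members, lists and alternatives were chosen with earlier results of these data known. Of the list genes, 2 had no row. Clusters used scanpy 1.11.5 and igraph 0.11.9 (1113 variable genes, 10 components, 20 neighbours, resolution 0.6). Other steps used Python 3.11.15, pandas 2.3.3, NumPy 2.4.6, SciPy 1.17.1 and matplotlib 3.10.9, and were checked on simulated data. The upstream sequence is from RefSeq (GRCm38.p6).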

Additional observations from a re-analysis of the deposited data

Results flagged for a closer look

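Outside the myeloid plates, 5 mutant melanocytes held Spp1, at 188.53 to 5037.25 TPM, and 0 of 81 wild-type melanocytes did, a signal in cells that the comparison does not use. In these 5 cells the melanocyte gene Dct was between 10030.5 and 34477.8 TPM and Ptprc at 0. The cell with the highest Spp1 also had the myeloid gene Lyz2 at 101.9 TPM and the melanocyte gene Mlana at 0. Another had Cd74 at 981.85 TPM. Lyz2 and Cd74 were otherwise at 0 in these 5 cells. The paper reported Spp1 among the most raised signalling transcripts of sorted Tyr-Nras melanocytes in bulk RNA-seq, with more osteopontin protein in them.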

How the results depend on the processing

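No paired analysis was possible because no comparison rests on a test and no animal is named. The Spp1-positive shares lay within their intervals under all 5 alternatives tried on them, and a Spp1 threshold of 10 TPM gave the same cells. Against 47 genes higher and 8 lower, a difference of at least 1 gave 5 and 0, and plates pooled gave 101 and 30. With log2(TPM + 1), on which low genes weigh more, 1324 were higher and 142 lower, and all 47 and 7 of the 8 were among them. Negative cells matched on genes detected gave 45 and 15, of which 27 and 3 were shared. Without lymphoid, mast, neutrophil and non-immune-led cells there were 32 and 12, with 31 and 4 shared. Dendritic and Langerhans-led cells alone, a choice added after seeing the data, gave 44 and 15, and there the difference of Il1b was -0.0371. Leaving out single positive cells gave 40 to 55 higher and 6 to 12 lower genes. The Leiden cluster richest in macrophage-led cells held 0% of the positive cells, against 14.3% by leading list. That cluster, cluster 4, held 17 of the 31 macrophage-led cells, and the 4 positive ones were in cluster 3, so the 2 shares cover different cells. With so few positive cells, a share of positive cells in a kind is known within wide limits, and the cause of the other shifts was not tested. Of the 140 named genes, 126 kept their sign with matched cells and 120 in dendritic and Langerhans-led cells.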
